A study of Mus musculus with 20 samples.

Results

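The genes described here are 10 members of the cytosolic and mitochondrial heat shock response: Hsf1, Hspa1a, Hspa1b, Hspa8, Hspb1, Hsph1, Dnajb1, Hsp90aa1, Bag3 and Hspd1. They were chosen by gene symbol, as the transcription factor HSF1 and its chaperone targets outside the endoplasmic reticulum (ER), and all 10 of 10 were listed among the 18754 genes shared by the 4 expression tables. RNA-Seq was carried out on whole mouse retinas, in 20 libraries from 4 groups of 5. The mice were of both sexes on the C57BL/6J background. The first 2 groups were pups that were kept in 75% oxygen from postnatal day (P) 7 to P12, returned to room air for 5 days and collected at P17. This is oxygen-induced retinopathy (OIR), in which new vessels grow out of the retina. One group was Atf6+/+ (WT in plots) and the other Atf6-/- (Atf6 KO in plots), a line lacking ATF6, the ER stress transcription factor. The other 2 groups were wild-type mice of P30 that had received 1 μL into the vitreous of both eyes, either saline (PBS in the labels and plots) or saline with 10 μM Ceapin-A7, a small molecule that holds ATF6 in the ER, and whose retinas were collected 24 h later. Both solutions held a solvent, dimethyl sulfoxide in the study's methods, for which the labels give 1 range for both groups and the methods give 0.01% with Ceapin-A7 and 0.05% in the control. The sources used here do not say whether each retina came from a separate mouse, so p-values measure the spread between these libraries, which may be in part technical.

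HSF1 is the main transcription factor of the heat shock response. When unfolded proteins build up in the cytosol it forms trimers, binds heat shock elements, which are repeats of the unit GAA and its inverse TTC, and switches on chaperone genes. Some of its targets, such as Hspa1a, Hspa1b and Bag3, are low in unstressed tissue and strongly inducible. Hspa8 and Hsp90aa1 were the most abundant members in every group here. ATF6 serves the ER, which has its own chaperones, so these genes show what happens in a neighbouring compartment when ATF6 is lost or blocked.

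Heat shock elements lay close upstream of most members for which a promoter sequence was at hand. RefSeq promoter windows of the mouse build GRCm38.p6, which run from 250 bases before a gene's start to 50 bases after it, were found for 7 members, and not for Hsf1, Hspa8 and Hsp90aa1. A 2-unit element (GAANNTTC or TTCNNGAA, each of which reads the same on both strands) was present in 6 of the 7, against 17% of all 27025 genes in the table. A 3-unit element, which contains 2-unit elements, was present in 2 of the 7, Hsph1 and Hspd1, against 0.662% of all genes. The TATAAA box, searched on both strands, was in 0 of 7 members and 15.7% of all genes, and the ER stress element (CCAAT, 9 bases, CCACG), through which ATF6 acts, was in 0 of 7 and 0.137% of all genes. The members were chosen as HSF1 targets, so these shares are a description. The upstream pieces below are shown because they hold the elements, which are in capitals. They are written 5′ to 3′ on the strand of the gene and lie at chr17:34972233-34972280 (minus strand), chr17:34959315-34959362 (minus), chr5:135887782-135887849 (plus), chr5:149636342-149636389 (minus) and chr1:55088039-55088096 (minus).
Hspa1a: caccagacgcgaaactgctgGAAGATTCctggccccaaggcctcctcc
Hspa1b: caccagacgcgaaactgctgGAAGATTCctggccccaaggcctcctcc
Hspb1: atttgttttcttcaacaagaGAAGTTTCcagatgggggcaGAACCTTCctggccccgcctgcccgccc
Hsph1: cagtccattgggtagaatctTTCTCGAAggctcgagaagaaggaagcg
Hspd1: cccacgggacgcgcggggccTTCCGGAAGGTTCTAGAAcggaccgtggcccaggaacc
The Hspa1a and Hspa1b pieces were identical, and 247 of the 250 upstream bases of these neighbouring genes were the same. Hspb1 had 2 elements, which began 117 and 97 bases before the start. In Hspd1, 4 units followed each other without a break, from 144 bases before the start. The elements of Bag3 and the 3-unit element of Hsph1 lay after the start, and Dnajb1 had none in its windows.

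Expression is given as FPKM, the fragments of a gene divided by its length and by the size of the library, which can be compared between genes because it is divided by length. FPKM summed to between 410599 and 456250 per library. The depth relative to the other libraries was read from the steps between low values, with 24 to 42 genes per library. It came out as 1 in 18 libraries, 0.948 in Atf6-/- OIR replicate 4 and 0.714 in Ceapin-A7-treated replicate 3. The values have 2 decimals, so this estimate is coarse, and a value of 1 does not show that depths were equal. Atf6 itself was at 14.9 ± 0.618 FPKM in Atf6+/+ and 15.2 ± 1.51 in Atf6-/- OIR retinas (SD, n = 5 each), and the log2 fold change was 0.03 (limma, adjusted p = 0.827). The knockout puts a premature stop codon in exon IV, and the gene's FPKM does not check the genotype labels. The 12 retina genes checked, among them the glial enzyme Glul, were above 0 in all 20 libraries. Lens fibre genes were present at very different levels: the summed FPKM of 19 lens genes ran from 73.2 to 1016 in Atf6+/+ OIR, 73.6 to 95.2 in Atf6-/- OIR, 77.1 to 7622 in saline-treated and 212 to 12584 in Ceapin-A7-treated libraries.

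The members spanned a wide range of levels. Hspa8, the constitutive HSP70 of the cytosol, and Hsp90aa1, the alpha form of cytosolic HSP90, were the 2 highest members in every group. In Atf6+/+ OIR retinas Hspa8 was at 884 ± 107 FPKM and Hsp90aa1 at 786 ± 127 (SD, n = 5), with overlapping libraries. Hspd1, the mitochondrial chaperonin HSP60, came next at 48.1 ± 5.27 FPKM and overlapped neither Hsp90aa1 above it nor Hsf1, at 31.0 ± 3.15, below it. Hspa1a, Dnajb1, Hsph1 and Hspa1b followed, between 24.8 and 16.9 FPKM on average, and neighbours in this order overlapped. Hspb1 (HSP27), at 9.76 ± 2.26, and Bag3, at 7.95 ± 4.5 FPKM, were lowest. The same genes were in the first 4 and in the last 2 places in every group, although in both P30 groups Hsp90aa1 stood above Hspa8. Between saline-treated libraries these 2 overlapped, and between Ceapin-A7-treated libraries they did not.

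**Figure D1:**
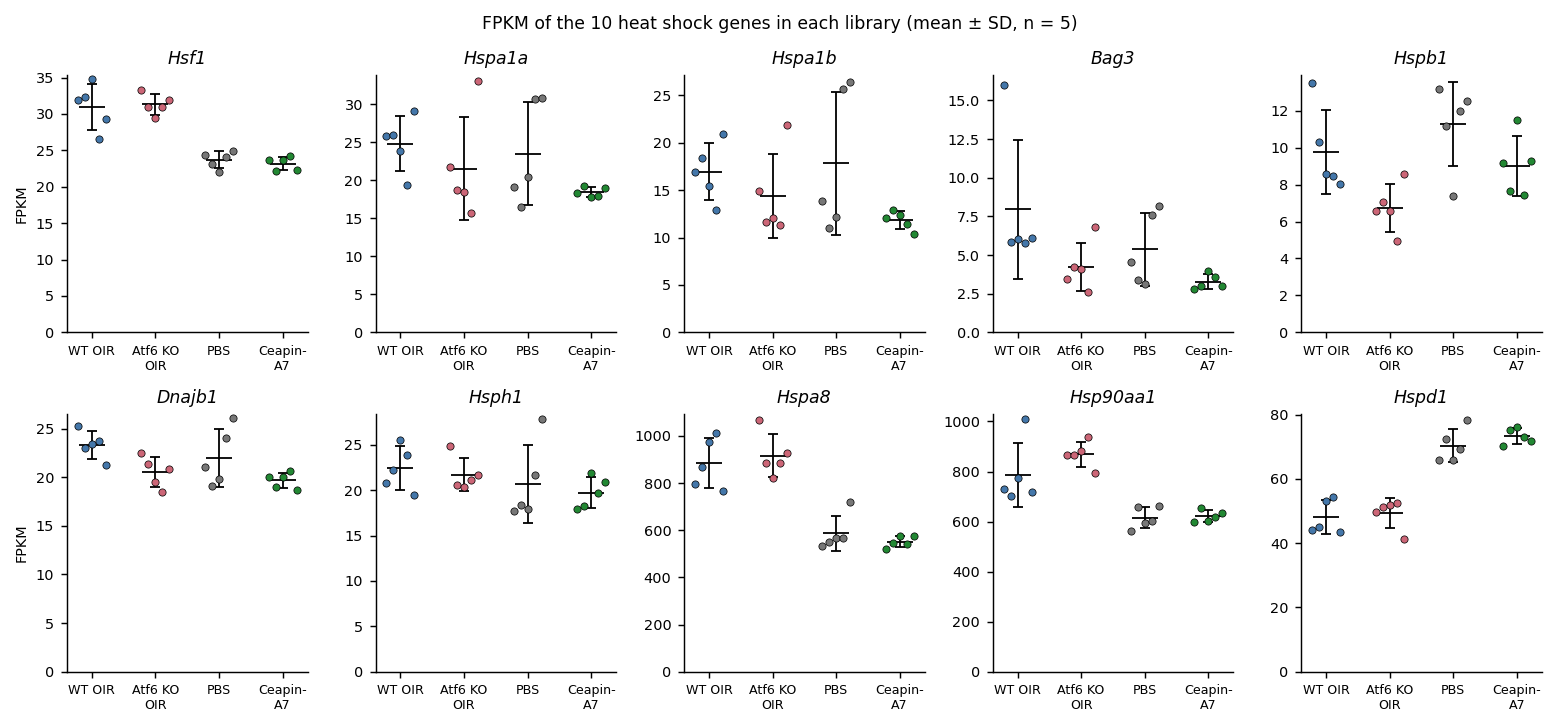
FPKM (y axis, from 0) of each of the 10 genes in the 4 groups (x axis). Points are single libraries in the order of their replicate numbers, and the bar with whiskers is the mean ± SD of 5 libraries. Saline-treated replicates 4 and 5 stand above the other P30 libraries for Hspa1a, Hspa1b and Bag3, and the 4 genes Hsf1, Hspa8, Hsp90aa1 and Hspd1 separate the P17 from the P30 retinas.

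The first comparison asks whether the heat shock genes differed in OIR retinas without ATF6. None of the 10 passed the threshold (limma, adjusted p under 0.05), and over all genes 5 of 15704, or 0.0318%, did. At an unadjusted p under 0.05 there were 3 members, all lower in Atf6-/- retinas, namely Hspb1, Bag3 and Dnajb1, where 12.7% of all genes were below this p and 5.81% were below it and lower. The groups did not overlap for 0 of 10 members and for 1.52% of all genes. The median log2 fold change of the 10 was -0.09, beside 0.00 over all genes tested. With limma's array weights, which give less weight to libraries that deviate, 2769 of 15704 genes and 5 of 10 members were called. The members were Hspa1a (-0.43), Hspa1b (-0.47), Hspb1 (-0.57) and Bag3 (-0.88), all lower, and Hsp90aa1 (0.25), higher. Every other alternative in OIR called 0 members and at most 11 genes.

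Bag3 is a co-chaperone that links HSP70 to autophagy. It was at 16.0, 5.84, 6.04, 5.76 and 6.10 FPKM in Atf6+/+ OIR replicates 1 to 5, and at 3.47, 4.23, 4.11, 2.61 and 6.79 FPKM in the Atf6-/- libraries. Replicate 1 was the highest Atf6+/+ library by far, and replicate 5 was the only Atf6-/- library within the range of the Atf6+/+ group. The log2 fold change was -0.81 ± 0.31 (SE; adjusted p = 0.362; exact permutation p = 0.0397, two-sided). Without Atf6+/+ replicate 1 it was -0.52, and without Atf6-/- replicate 5 it was -1.01.

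Hspb1, a small heat shock protein that binds unfolding proteins, was at 13.5, 10.3, 8.55, 8.44 and 8.01 FPKM in Atf6+/+ and at 6.57, 7.08, 6.57, 4.96 and 8.60 FPKM in Atf6-/- OIR libraries. Replicate 5 of Atf6-/- was again the highest of its group and alone overlapped the Atf6+/+ libraries. The log2 fold change was -0.50 ± 0.17 (SE; adjusted p = 0.362; exact permutation p = 0.0317). Dnajb1, the J-protein that delivers clients to inducible HSP70, was at 25.2, 23.0, 23.4, 23.7 and 21.2 FPKM in Atf6+/+ and at 22.5, 21.4, 19.5, 18.5 and 20.9 FPKM in Atf6-/- OIR libraries. Of these, 2 Atf6-/- libraries were above the lowest Atf6+/+ library. The log2 fold change was -0.16 ± 0.07 (SE; adjusted p = 0.380; exact permutation p = 0.0476).

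Hspa1a and Hspa1b encode the inducible HSP70. Hspa1a was at 25.8, 26.0, 23.9, 19.3 and 29.1 FPKM in Atf6+/+ and at 21.8, 18.7, 18.5, 15.7 and 33.0 FPKM in Atf6-/- OIR libraries. Hspa1b was at 16.9, 18.4, 15.5, 12.9 and 21.0 FPKM in Atf6+/+ and at 14.9, 11.7, 12.03, 11.3 and 21.8 FPKM in Atf6-/- OIR libraries. For both genes Atf6-/- replicate 5 was the highest of all 10 OIR libraries, while the other 4 Atf6-/- libraries lay at or below 21.8 and 14.9 FPKM. The log2 fold changes were -0.22 ± 0.19 and -0.25 ± 0.20 (SE; adjusted p = 0.577 and 0.548), with 95% intervals from -0.64 to 0.19 and from -0.68 to 0.18. Without replicate 5 they were -0.41 and -0.43, with adjusted p of 0.110 and 0.117.

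These 2 genes share reads, so the split between them is uncertain. Their coding sequences, of 1926 and 1929 bases, differed by 8 mismatched and 3 missing bases, an identity of 99.6%, and 47.1% of the 100-base windows of the Hspa1a transcript were also in Hspa1b. The ratio of Hspa1b to Hspa1a FPKM lay between 0.548 and 0.855 and was highest in saline-treated replicates 4 and 5. Their sum, which does not rest on the split, was 41.7 ± 6.58 FPKM in Atf6+/+ and 35.9 ± 11.1 in Atf6-/- OIR retinas (SD, n = 5; exact permutation p = 0.325).

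Of the other members, Hsp90aa1 was higher by fold change in Atf6-/- retinas, without a call, and the rest were close in the 2 genotypes. Hsp90aa1 was at 730, 701, 774, 1008 and 717 FPKM in Atf6+/+ and at 866, 868, 882, 936 and 796 FPKM in Atf6-/- OIR libraries. All Atf6-/- libraries were above 4 of the Atf6+/+ libraries, and Atf6+/+ replicate 4 was above them all. The log2 fold change was 0.17 ± 0.09 (SE; adjusted p = 0.417). For Hsf1, Hspa8, Hsph1 and Hspd1 the log2 fold changes lay between -0.02 and 0.07, and the outermost bounds of their 95% intervals were -0.20 (Hsph1) and 0.28 (Hspa8).

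**Figure D2:**
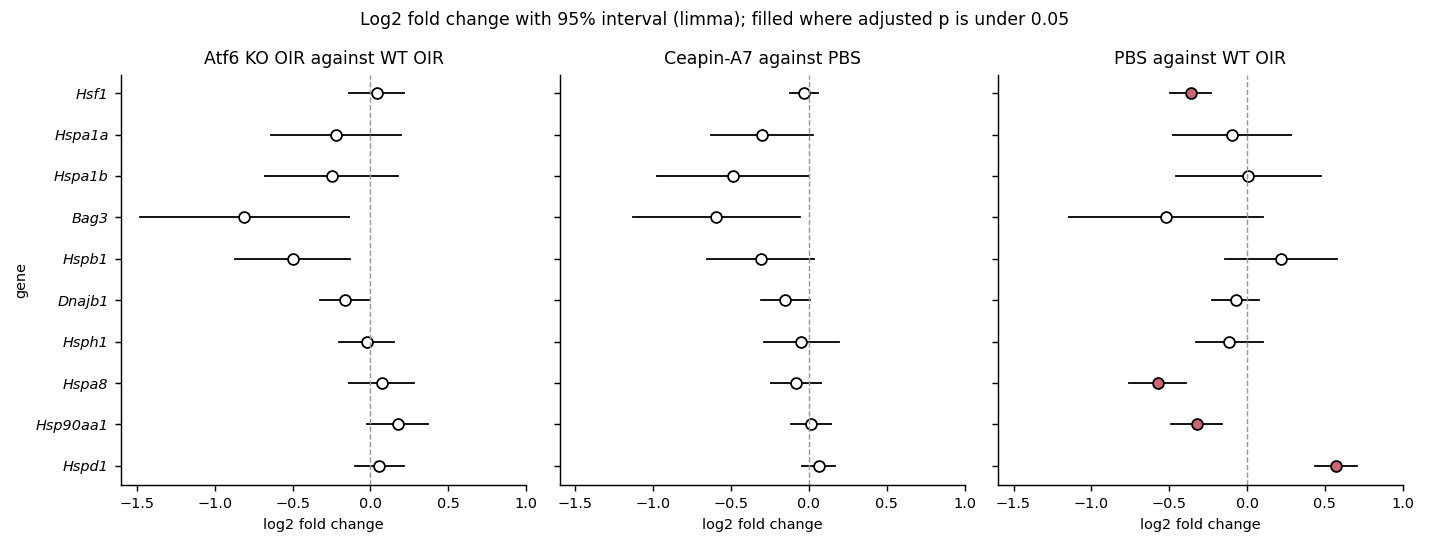
Log2 fold change (x axis) of each member (y axis) in 3 comparisons, with the 95% interval of the limma fit, 10 libraries in each of the first 2 and 20 in the third. No symbol is filled in the first 2 comparisons, and 4 are filled (adjusted p under 0.05) in the third.

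In the OIR comparison the log2 fold change of a gene moved with the GC content of its transcript. Over all genes with a GC value, Spearman's correlation was -0.479, and the median log2 fold change was 0.12 in the 10% of genes with the lowest GC content and -0.15 in the 10% with the highest. The members with the highest GC content, Hspb1 (61.7%), Hspa1a (58.9%), Hspa1b (58.1%) and Bag3 (56.1%), were those with the most negative fold changes, and Hsp90aa1, at 43.7%, had the most positive. With a GC correction, chosen after seeing the data, the log2 fold changes were -0.34 for Hspb1, -0.09 for Hspa1a, -0.13 for Hspa1b, -0.71 for Bag3 and 0.09 for Hsp90aa1. In the Ceapin-A7 comparison this correlation was -0.099.

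**Figure D3:**
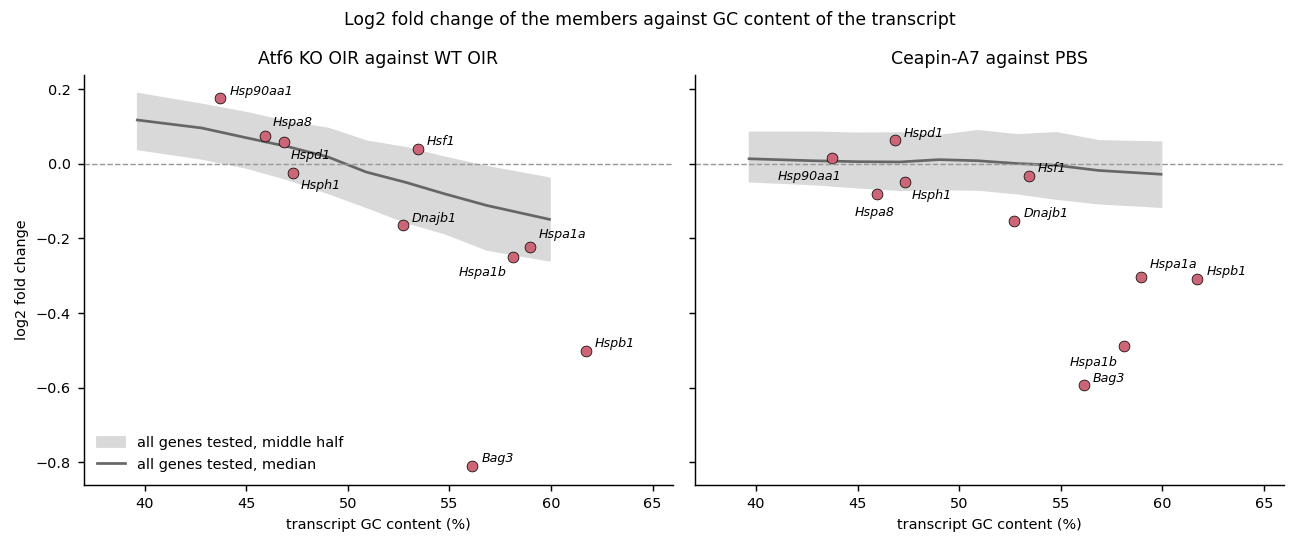
Log2 fold change (y axis) of the 10 members (points) against the GC content of their transcripts in percent (x axis), in both inactivation experiments. The line is the median of all genes tested in each of 10 bins of GC content and the band runs from the lower to the upper quartile. In OIR the line falls from 0.12 to -0.15. Bag3 lies below the band and Hsp90aa1 above it, and Dnajb1, Hspa1b and Hsf1 lie at or just outside its edges. Hspb1 is beyond its right end at -0.50. After Ceapin-A7 the line is nearly flat.

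The second comparison asks the same of retinas injected with Ceapin-A7. Again none of the 10 members passed the threshold, nor did any of the 15408 genes (0.0%), and the smallest adjusted p of any gene was 0.472. At an unadjusted p under 0.05 there was 1 member, Bag3, where 10.4% of all genes were below this p. Of the 10 members 8 were lower by fold change, with a median of -0.12, beside 0.00 over all genes, of which 49.7% were lower. The groups did not overlap for 0 of 10 members, against 1.34% of all genes.

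The inducible genes were uneven among the saline-treated libraries and even among the Ceapin-A7-treated ones. Hspa1a was at 19.2, 16.5, 20.4, 30.7 and 30.9 FPKM in saline-treated replicates 1 to 5 and at 18.3, 19.3, 17.8, 17.9 and 19.0 FPKM after Ceapin-A7. Hspa1b was at 13.9, 11.03, 12.2, 25.7 and 26.4 FPKM in saline-treated and at 12.1, 12.9, 12.4, 11.4 and 10.4 FPKM in Ceapin-A7-treated libraries. Bag3 was at 4.54, 3.38, 3.14, 7.60 and 8.18 FPKM in saline-treated and at 2.80, 3.01, 3.99, 3.61 and 3.01 FPKM in Ceapin-A7-treated libraries. For each of these genes saline-treated replicates 4 and 5 stood above every Ceapin-A7-treated library, and replicates 1 to 3 lay in or near the range of the Ceapin-A7-treated libraries. The coefficient of variation of Hspa1a was 28.8% with saline and 3.61% with Ceapin-A7.

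The log2 fold changes with Ceapin-A7 were -0.30 ± 0.15 for Hspa1a, -0.49 ± 0.22 for Hspa1b and -0.59 ± 0.24 for Bag3 (SE; adjusted p = 0.492, 0.481 and 0.472; exact permutation p = 0.159, 0.119 and 0.0714). Without saline-treated replicates 4 and 5, a choice made after seeing the data, they were -0.03, -0.07 and -0.17. In that fit 0 members were below an unadjusted p of 0.05, beside 769 of 15378 genes. With all 10 libraries 1595 of 15408 genes were below it, so the fall was not particular to the members. The summed FPKM of Hspa1a and Hspa1b was 41.3 ± 14.3 with saline and 30.3 ± 1.13 with Ceapin-A7 (SD, n = 5; exact permutation p = 0.111).

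Dnajb1 and Hsph1, the latter an HSP110 that acts as an exchange factor of HSP70, were also higher in the same saline-treated libraries. Dnajb1 was at 21.0, 19.1, 19.8, 24.1 and 26.1 FPKM in saline-treated and at 19.99, 19.03, 20, 20.62 and 18.72 FPKM in Ceapin-A7-treated libraries. Its log2 fold change was -0.15 ± 0.07 (SE; adjusted p = 0.484), and -0.04 without replicates 4 and 5. Hsph1 was at 17.7, 18.4, 17.9, 21.7 and 27.9 FPKM in saline-treated and at 17.9, 18.2, 21.9, 19.7 and 20.9 FPKM in Ceapin-A7-treated libraries. Its log2 fold change was -0.05 ± 0.11 (adjusted p = 0.878). In all, saline-treated replicates 4 and 5 were the 2 highest of their group for 5 of the 10 members. The saline-treated means of replicates 4 and 5 were 1.65 times those of replicates 1 to 3 for Hspa1a, 2.11 for Hspa1b, 2.14 for Bag3, 1.38 for Hsph1 and 1.26 for Dnajb1.

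Hspb1 did not have this pattern. It was at 13.2, 11.2, 7.40, 11.96 and 12.6 FPKM in saline-treated and at 9.17, 7.68, 11.5, 7.44 and 9.26 FPKM in Ceapin-A7-treated libraries, so that replicate 3 of the saline-treated libraries was the lowest of all 10 and the others lay at 11.2 or above. The log2 fold change was -0.31 ± 0.16 (SE; adjusted p = 0.498). Hsf1, Hspa8, Hsp90aa1 and Hspd1 had log2 fold changes between -0.08 and 0.06, and the bounds of their 95% intervals lay between -0.24 (Hspa8) and 0.17 (Hspd1).

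**Figure D4:**
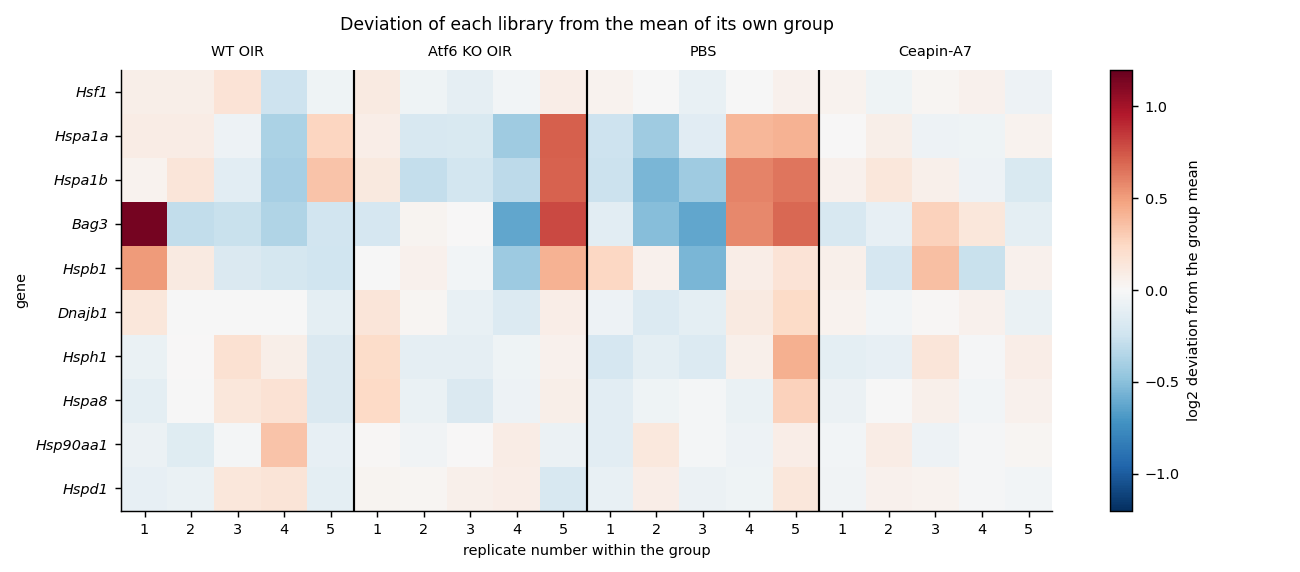
Deviation of each library (x axis, replicate number within each of the 4 groups) from the mean of its own group on the log2 scale (colour), for the 10 members (y axis). Red is above and blue below the group mean. Hspa1a, Hspa1b and Bag3 are red together in Atf6-/- OIR replicate 5 and in saline-treated replicates 4 and 5, and Hspa1a is pale in every Ceapin-A7-treated library.

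Hspa1a and Hspa1b, and less closely Bag3 and Dnajb1, varied together from library to library within groups. Over the 20 libraries, the deviations of Hspa1a from its group means had a Pearson correlation of 0.946 with those of Hspa1b, 0.677 with Bag3 and 0.614 with Dnajb1, and of -0.424 with Hsp90aa1 and -0.499 with Hspd1. Without the 2 libraries that deviated most, Atf6-/- OIR replicate 5 and saline-treated replicate 5, these were 0.922, 0.519, 0.528, -0.559 and -0.563. The negative values were found in the 10 OIR libraries, with -0.625 for Hsp90aa1 and -0.851 for Hspd1, and were 0.01 and 0.209 in the 10 injected libraries. For Bag3 the correlation was 0.592 in OIR and 0.818 in injected libraries, and for Dnajb1 it was 0.431 and 0.844. With the remaining members it was lower over the 20 libraries, at 0.420 (Hspb1), 0.405 (Hsf1), 0.389 (Hsph1) and 0.224 (Hspa8). The points share library preparation, GC content and, for Hspa1a and Hspa1b, reads, so these values are a description. Of 12987 genes outside the members with a mean of at least 1 FPKM, those most like Hspa1a by this measure were Diaph1 (r = 0.932), Trim8 (0.924) and Elfn1 (0.915). Those most like Hsp90aa1 were Eif2s1 (0.910), Vip (0.909) and Oser1 (0.888). For Hspb1 they were Tfeb (0.846), Rhog (0.834) and Myo1c (0.826), and for Hspd1 they were Crls1 (0.915), Hnrnpa2b1 (0.887) and Hnrnph1 (0.882).

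Genes of acute cell activation were also high in 3 libraries with high inducible HSP70, Atf6-/- OIR replicate 5 and saline-treated replicates 4 and 5, and gliosis genes in the saline-treated ones. The summed FPKM of 14 immediate early genes, which respond within minutes to stimulation or injury, was 317, 239, 270, 415 and 372 in saline-treated replicates 1 to 5 and between 215 and 255 in all Ceapin-A7-treated libraries. Among OIR libraries it was highest in Atf6+/+ replicate 1 (569), where Bag3 was highest, and in Atf6-/- replicate 5 (461), where Hspa1a was highest. Hspa1a was at 25.8 FPKM in the former, and in Atf6+/+ replicate 5, with Hspa1a at 29.1 FPKM, the sum was 288, within the range of its group. The summed FPKM of 10 gliosis genes, such as Gfap and Vim, was 452, 324, 202, 729 and 519 with saline and between 175 and 303 with Ceapin-A7. In saline-treated replicates 4 and 5 the 12 retina genes summed to 6989 and 6974 FPKM, below the 9358 to 12904 of the other 18 libraries. After Ceapin-A7, 9 of 14 immediate early genes and 6 of 10 gliosis genes were lower at an unadjusted p under 0.05, and 0 were called. Of all genes 10.4% were below this p in either direction, namely 1595 of 15408, of which 777 were higher. In OIR all 10 gliosis genes had negative log2 fold changes, with a median of -0.55 and 3 below this p, and 12 of 14 immediate early genes did, with 1 below it. Of all genes in OIR 49.3% had negative ones, 12.7% were below this p, and 5.81% were below it and lower. The gliosis sum was 1018 FPKM in Atf6+/+ replicate 1, the library with the highest Bag3, and between 459 and 794 in the other 4. In the same comparison 9 of 10 pigment epithelium genes had positive log2 fold changes, with a median of 0.83 and 5 below this p, and 15 of 16 lens genes tested had negative ones, with 13 below it. Fos was at 14.7 ± 1.93 FPKM with Ceapin-A7 and 23.2 ± 5.93 with saline (SD, n = 5; limma, adjusted p = 0.472). The part of these genes, or of the cells they mark, in the differences of the heat shock members was not tested.

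**Figure D5:**
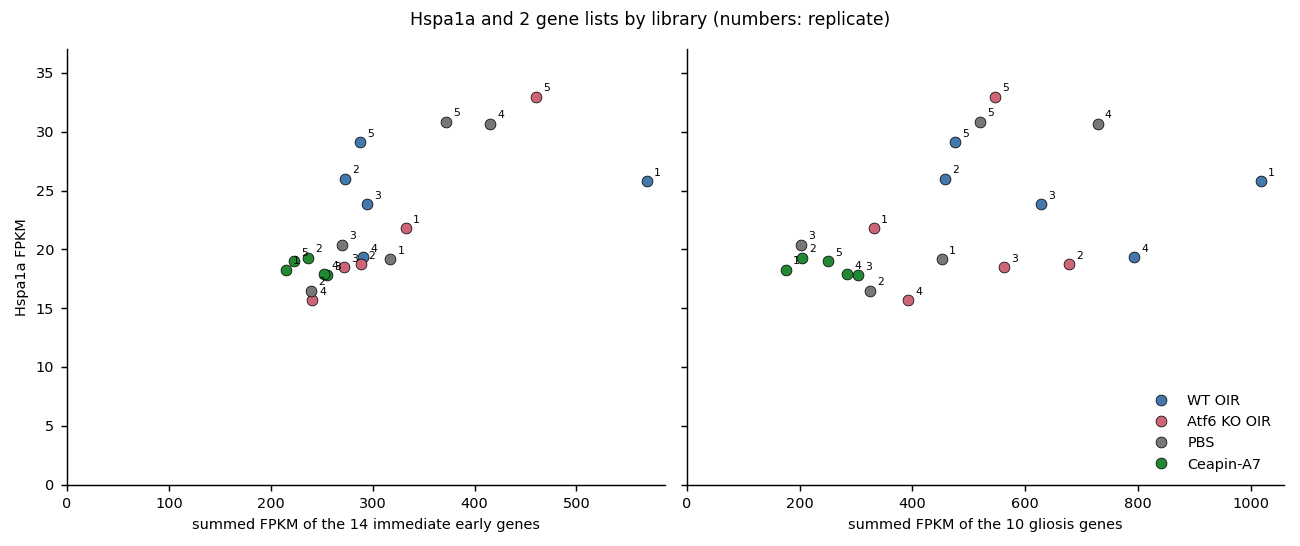
Hspa1a FPKM (y axis) against the summed FPKM of 14 immediate early genes (left x axis) and of 10 gliosis genes (right x axis), a point for each of the 20 libraries, numbered by replicate. Atf6-/- OIR replicate 5 and saline-treated replicates 4 and 5 are highest for Hspa1a and among the highest 4 for the immediate early genes.

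Whether the effect of the knockout differed from that of Ceapin-A7 was tested as the difference of the 2 log2 fold changes in a fit of all 20 libraries. It passed the threshold for 0 of 10 members, beside 5 of 15628 genes, or 0.032%, and 0 members were below an unadjusted p of 0.05, beside 9.19% of genes. The smallest p among members was that of Hsp90aa1, with a difference of 0.16 ± 0.11 (SE; adjusted p = 0.662) and a 95% interval from -0.07 to 0.39. For Bag3 the interval ran from -1.09 to 0.67.

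The third comparison sets the control group of each experiment side by side. Age, oxygen, injection and experiment cannot be told apart in it, and 9227 of 15628 genes, or 59.0%, passed the threshold. Of all genes 29.4% were higher and 29.6% lower in P30 retinas. Of the members 4 of 10 passed: Hspd1 was higher in saline-treated P30 retinas, and Hspa8, Hsp90aa1 and Hsf1 were lower. The groups did not overlap for the same 4 members, against 40.4% of all genes.

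Hspd1 was at 44.1, 45.2, 53.2, 54.5 and 43.6 FPKM in Atf6+/+ OIR and at 65.95, 72.3, 66.05, 69.3 and 78.4 FPKM in saline-treated libraries. Every P30 library was above every P17 library, and the log2 fold change was 0.57 ± 0.06 (SE; adjusted p = 2.8e-07). Of the 8 other mitochondrial chaperones and proteases tested, 5 were called, 4 of them higher, beside 59.0% and 29.4% of all genes. The co-chaperonin Hspe1 went from 36.2 to 63.4 FPKM (log2 fold change 0.83; adjusted p = 6.7e-08) and the mitochondrial HSP70 Hspa9 from 51.7 to 77.2 FPKM (0.59; adjusted p = 5.4e-07). Trap1, the HSP90 of mitochondria, was lower (-0.41; adjusted p = 4.7e-06), and 3 of the 8 did not pass.

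Hspa8 was at 797, 870, 973, 1012 and 768 FPKM in Atf6+/+ OIR and at 534, 549, 567, 566 and 718 FPKM in saline-treated libraries. The highest P30 library, replicate 5, was still below the lowest P17 library, and the log2 fold change was -0.57 ± 0.09 (SE; adjusted p = 1.4e-05). Hsp90aa1 was at 564, 656, 596, 604 and 661 FPKM in saline-treated libraries, all below the Atf6+/+ OIR values given above, with a log2 fold change of -0.32 ± 0.08 (adjusted p = 0.00141). With quantile normalization it was -0.08 (adjusted p = 0.343). Hsf1 was at 31.9, 32.3, 34.8, 26.5 and 29.3 FPKM in Atf6+/+ OIR and at 24.4, 23.1, 21.96, 24.1 and 24.97 FPKM in saline-treated libraries. These groups did not overlap, and the log2 fold change was -0.36 ± 0.06 (adjusted p = 5.9e-05).

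The other 6 members did not pass the test between the control groups. Bag3 had a log2 fold change of -0.52 ± 0.30 (SE; adjusted p = 0.142) and Hspb1 of 0.22 ± 0.17 (adjusted p = 0.282). With the GC correction Hspb1 was called, at 0.42 (adjusted p = 0.0236). Without saline-treated replicates 4 and 5, 7 members were called, beside 8713 of 15646 genes. Bag3 at -0.94, Hsph1 at -0.27 and Dnajb1 at -0.19 were then lower in P30 retinas (limma, adjusted p = 0.014, 0.0116 and 0.028). Without replicate 5 alone, 5 members were called, beside 8936 of 15635 genes.

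The rest of the heat shock network was read from 8 lists of related genes. In neither inactivation experiment was any of their genes called. For the counts at an unadjusted p under 0.05 that follow, the share of all genes was 12.7% in OIR and 10.4% after Ceapin-A7. Among the relatives and regulators of HSF1, the factor Hsf4, known from the lens, was at 2.25 ± 0.262 FPKM in Atf6-/- and 2.94 ± 0.280 in Atf6+/+ OIR retinas (SD, n = 5; adjusted p = 0.358), without overlap, and at 3.42 and 3.27 FPKM with Ceapin-A7 and saline. The list's most abundant gene, the HSF1-binding Hsbp1, had log2 fold changes of 0.12 and 0.09. Of 14 HSP70 and HSP110 partners 2 were below an unadjusted p of 0.05 in OIR, the nucleotide exchange factors Bag1 and Bag2, with log2 fold changes of -0.13 and -0.19. After Ceapin-A7 there was 1, the testis-type HSP70 Hspa1l, at 0.342 and 0.182 FPKM with Ceapin-A7 and saline, a level near the filter.

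Of 9 cytosolic J-proteins, 2 were below this p in OIR, Dnajb6 (log2 fold change 0.14) and Dnaja1 (0.15), and 2 after Ceapin-A7, Dnajb2 (-0.11) and Dnajb5 (-0.12). Of all genes 12.7% were below it in OIR and 10.4% after Ceapin-A7. Of 12 HSP90 genes and co-chaperones, 0 were below it in OIR and 2 after Ceapin-A7, Unc45a (-0.12) and Fkbp5 (0.18). The 8 genes of the CCT chaperonin, which folds actin and tubulin, all had positive log2 fold changes in both experiments, with medians of 0.11 and 0.02, and 0 of 8 were below this p in either. Of all genes 49.3% had negative ones in OIR and 49.7% after Ceapin-A7. Among 4 further HSF1 targets, the heme oxygenase Hmox1 was at 48.6 ± 22.7 FPKM in Atf6+/+ and 26.6 ± 12.4 in Atf6-/- OIR retinas (SD, n = 5; adjusted p = 0.390), and the polyubiquitin gene Ubb was the most abundant gene of these lists, at 2135 and 2234 FPKM.

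The small heat shock proteins were dominated by lens genes in some libraries. Their summed FPKM over 8 genes was between 204 and 238 in Atf6-/- OIR libraries and reached 4023 with saline and 5810 with Ceapin-A7, where Cryaa, the alpha A crystallin of lens, made up the largest share. Cryaa was at 0.18 to 129.9 FPKM in Atf6+/+ and at 0 to 0.23 FPKM in Atf6-/- OIR libraries. Hspb6, the most abundant of them in most OIR libraries, was at 113 ± 9.53 in Atf6+/+ and 114 ± 11.4 FPKM in Atf6-/- OIR retinas (SD, n = 5). Among Ceapin-A7-treated libraries, Hspb1 was at 9.17, 9.26 and 11.5 FPKM where the 19 lens genes summed to 12584, 5950 and 1434 FPKM, and at 7.68 and 7.44 FPKM where they summed to 212 and 230. With saline, the lens genes summed to 7622, 3022, 77.1, 2967 and 92.3 FPKM in replicates 1 to 5. Hspb1 was at 13.2, 11.2, 7.40, 11.96 and 12.55 FPKM in these libraries. The highest and the lowest lens sum thus stood beside the highest and the lowest Hspb1, but replicate 5 had a low lens sum and high Hspb1. Among Atf6+/+ OIR libraries the highest lens sum (1016), in replicate 5, stood beside the lowest Hspb1 (8.01). The part of lens cells in the level of Hspb1 was not tested.

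Between the control groups more of these genes passed the test, against 59.0% of all genes. Of 14 HSP70 and HSP110 partners 10 were called, 5 in each direction, and of 9 J-proteins 6 were called, all higher in saline-treated P30 retinas. The neuronal J-protein Dnajb2 went from 37.7 to 74.3 FPKM (log2 fold change 1.00; adjusted p = 4.8e-10), and Hspa4l, an HSP110, from 47.6 to 71.9 FPKM (0.61; adjusted p = 6.2e-10). Of 12 HSP90 genes and co-chaperones 8 were called, 4 in each direction. Ptges3, the HSP90 co-chaperone p23, was higher (log2 fold change 0.65; adjusted p = 1.1e-09), and Cdc37, which brings kinases to HSP90, was lower (-0.39; adjusted p = 2.8e-06). Of 4 HSF1 relatives and regulators tested, 3 were called, and Hsbp1 was lower (-0.24; adjusted p = 0.00188). Of 7 small heat shock proteins 3 were called, of 8 CCT genes 3, all higher, and of the 4 further HSF1 targets 3, all lower, among them the collagen chaperone Serpinh1 (41.2 to 13.2 FPKM) and Hmox1 (48.6 to 6.50 FPKM). Endothelial and microglial genes were lower in the same P30 libraries, with 6 of 8 and 7 of 8 called. Fewer cells of a type and less RNA per cell cannot be told apart in whole retinas.

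The chaperones of the ER, the compartment that ATF6 serves, were set beside the 10 members. After Ceapin-A7 all 16 had negative log2 fold changes, beside 49.7% of all genes. Their median was -0.07, beside -0.12 for the heat shock members. Their summed FPKM was 970, 966, 929, 1025 and 1127 in saline-treated replicates 1 to 5 and between 915 and 1019 with Ceapin-A7. Saline-treated replicates 1 to 3 thus lay within the Ceapin-A7 range, and replicates 4 and 5 above it. In OIR 10 of 16 were lower, beside 49.3% of all genes, with a median of -0.12 beside -0.09. Of the 16, 0 were called in either experiment. Derl3, an ER-associated degradation gene, was at 1.86 ± 0.221 FPKM in Atf6+/+ and 1.09 ± 0.166 in Atf6-/- OIR retinas (SD, n = 5), with no overlap and a log2 fold change of -0.71 (adjusted p = 0.163). The difference between the 2 groups of genes was not tested.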

How the data were processed

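Per the file headers and labels, the deposited values were FPKM per gene, to 2 decimals, in 4 tables, 1 for each group of 5 libraries. Both OIR tables list the same 19368 genes and both tables of injected retinas the same 19102. The authors sequenced stranded mRNA as paired-end reads of 100 bp, aligned them to GRCm39 with HISAT2 (2.0.4) and estimated expression with RSEM (1.2.18). The submitters' processing notes also name DESeq2 (1.4.5). The authors' columns of fold changes and p-values were not used. FPKM are not counts, so no count model was fitted.

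Libraries were scaled by median-of-ratios factors. Genes with a mean above 0.1 FPKM were kept, and log2(FPKM + 0.1) was compared between groups with limma (3.58.1, eBayes with trend) in R (4.3.3). P-values were adjusted by the Benjamini-Hochberg method over all genes tested, with 0.05 as the threshold for a call. Fold changes on this scale understate the change of low genes. The first 2 comparisons used 10 libraries each. The comparison of controls and the difference of effects used all 20. Every comparison between groups is thus across tables, and rests on FPKM being scaled per library and on the factors above. Exact two-sided permutation tests over all arrangements of the libraries were computed beside limma, and the smallest p that 5 and 5 libraries allow is 0.00794. No 2 libraries had identical values. The number of fragments behind each value is not given, so no counting interval was computed. GC content came from a GRCm38 annotation by symbol, for 97.0% of genes tested in OIR. Fits were tested on simulated data.

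The members and gene lists were chosen with earlier results of these data known. All members are named, with up to 4 genes of smallest p and the most abundant gene per list, Atf6, and the 3 genes most like Hspa1a, Hsp90aa1, Hspb1 and Hspd1. Glul, Gfap and Vim are examples of their lists. A further retina marker is not reported here. Alternatives were the pseudocount, the filter, the scaling, limma without trend or with array weights, the replicate number as a block, a 20-library fit and leaving out each library. A GC correction and leaving out saline-treated replicates 4 and 5 were chosen after seeing the data.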

Additional observations from a re-analysis of the deposited data

Results flagged for a closer look

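In 4 of 40 combinations of a member and a group, 1 library stood apart from the other 4 by Dixon's test at the 95% level, where chance gives about 1 in 20, or 2. Bag3 was at 16.0 FPKM in Atf6+/+ OIR replicate 1, and without that library its log2 fold change in OIR was -0.52 and not -0.81. Hsp90aa1 was at 1008 FPKM in Atf6+/+ OIR replicate 4, and without it the log2 fold change was 0.25 (limma, adjusted p = 0.156). Hspd1 was at 41.4 FPKM in Atf6-/- OIR replicate 5, the OIR library with the highest Hspa1a and Hspa1b. Hspa8 was at 718 FPKM in saline-treated replicate 5, which was also high for the inducible members. No member passed the test of a difference between the 2 effects.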

How the results depend on the processing

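Of 950 results for a member under an alternative, 882 kept their direction and their side of the threshold, 10 passed it only under the alternative, 1 no longer passed it and 57 changed sign, all 57 without a call. The causes were not tested. With array weights 2769 of 15704 genes and 5 of 10 members were called in OIR (Hspa1a, Hspa1b, Hspb1 and Bag3 lower, Hsp90aa1 higher). With these weights 744 of 15628 genes were called for the difference of effects. Genes called in OIR were 9 without a filter, 8 with the GC correction, 11 in the fit of 20 libraries and 5 to 9 when 1 library was left out. After Ceapin-A7, 1 gene was called in the fit of 20 libraries. Without saline-treated replicates 4 and 5, 7 members and 8713 of 15646 genes were called between the controls. The difference of effects gave 3 to 12 genes when 1 library was left out. The fit with the replicate block gave 3 genes for the difference and changed no call of a member. Same-numbered libraries correlated between -0.392 and 0.314 in OIR and between -0.375 and 0.455 after injection. Of 10 numbers 1 had its best partner in itself. These correlations do not settle whether the numbers pair libraries. With the block in OIR, the SE of Hspa1a went from 0.19 to 0.10 and its unadjusted p from 0.268 to 0.058 (limma). For Hspa1b the SE went from 0.20 to 0.11 and the unadjusted p from 0.23 to 0.047. Their adjusted p with the block were 0.406 and 0.394. For Hspa8 the SE rose from 0.10 to 0.12.

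Signs changed for values near 0 and for some larger ones, such as the differences of effects of Hspa1b (0.24 in the main fit) and Bag3 (-0.21). Leaving out 1 library gave log2 fold changes of -0.028 to 0.079 for Hsf1 and -0.077 to 0.02 for Hsph1 in OIR, -0.097 to 0.056 for Hsph1 and -0.014 to 0.045 for Hsp90aa1 after Ceapin-A7, and -0.2 to 0.013 for Hspa1a and -0.15 to 0.15 for Hspa1b between controls. For the difference of effects they were -0.096 to 0.19 (Hspa1a), -0.079 to 0.078 (Hsph1), -0.069 to 0.031 (Dnajb1), -0.41 to 0.075 (Bag3) and -0.037 to 0.046 (Hspd1). Array weights gave -0.034 for Hsf1 in OIR, 0.021 for Hsph1 after Ceapin-A7, -0.21 for Hspa1b between controls, and -0.22 (Hspa1a), -0.098 (Hspa1b), -0.044 (Hsph1) and 0.046 (Hspd1) for the difference. Without saline-treated replicates 4 and 5, Hsph1 after Ceapin-A7 was 0.11, Hspa1b between controls -0.40, and the differences -0.19 (Hspa1a), -0.17 (Hspa1b) and -0.13 (Hsph1). Scaling to the same sum gave -0.024 for Hsp90aa1 after Ceapin-A7 and differences of 0.002 (Dnajb1) and 0.0091 (Hspd1). Quantile normalization gave -0.067 for Hsp90aa1 after Ceapin-A7 and -0.027 for Hspa1b between controls, which was -0.0096 with FPKM as deposited. The GC correction gave 0.078 for Hspa1a between controls and differences of -0.0098 (Hsph1) and 0.029 (Dnajb1).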
